A study of Danio rerio with 9 samples.

Results

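Of the 52216 zebrafish transcript IDs measured in cells sorted from 72 hours post fertilization trunks, 109 were present in every library of the oligodendrocyte lineage and of neurons and low in every Schwann cell library, and the 100 with the widest gap are described here. The members were chosen by their own levels in CPM (the estimated count of a transcript divided by the library's sum of estimated counts, times 1000000). A transcript had to reach 20 CPM in all 3 oligodendrocyte lineage and all 3 neuron libraries and stay under 10 CPM in all 3 Schwann cell libraries. The selection score was log2 of the lowest CPM of those 6 libraries, plus 1, minus log2 of the highest Schwann cell CPM, plus 1. Because these levels made the choice, the gap to Schwann cells is a description and carries no test.

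The 9 libraries form 3 groups of 3, all from strain AB* at 72 hours post fertilization, from trunks separated from the anterior body. The Schwann cell fish carried Gt(foxd3:mCherry), a gene trap, with Tg(sox10:mEGFP), and cells positive for both reporters were sorted. The oligodendrocyte lineage fish carried Tg(olig2:dsred) with Tg(sox10:megfp), again sorted as double positive, and the neuron fish carried Tg(nbt:dsred) alone. Population and transgenic background were therefore confounded and cannot be told apart. The labels do not state whether replicates were separate clutches or sorts, so the p-values refer to the spread between these libraries, which may be technical.

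Schwann cells ensheath and myelinate axons of peripheral nerves and arise from the neural crest. Oligodendrocytes do so in the central nervous system and, like most neurons of the spinal cord, arise from the neural tube, where olig2 marks a ventral progenitor domain that gives rise to motor neurons and oligodendrocyte precursors. The transcription factor sox10 is used by both kinds of glia, while foxd3 is a neural crest factor that peripheral glia retain. The deposited files do not pair transcript IDs with genes, and 0 of the 52216 IDs matched the gene tables at hand, so members are given by ID, without gene names, functions or sequences. For the same reason the sorted populations were not compared with marker genes of their own or of other cell types. A transcript ID is 1 isoform, and counts were not summed over the isoforms of a gene, so the absence of an ID does not show that its gene was silent.

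The member with the highest score, ENSDART00000113342.4, had 0.118, 0.281 and 0.179 CPM in Schwann cells replicates 1, 2 and 3, which was 5 counts over all 3 libraries. In the oligodendrocyte lineage its level was 543, 483 and 430 CPM, and in neurons 299, 241 and 191 CPM. All 6 libraries were high, and every oligodendrocyte lineage library lay above every neuron library. The next, ENSDART00000132027.1, had 0.118 CPM in Schwann cells replicate 1, 1 count, and no counts in the other libraries of that group. Its levels were 215, 388 and 698 CPM in the oligodendrocyte lineage, with 187, 156 and 119 CPM in neurons. The oligodendrocyte lineage libraries spread over a wider range than the neuron libraries and again lay above them all.

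The members at ranks 3 and 4 were level between the populations that carried them. ENSDART00000138308.2 had 1.53, 0.702 and 0 CPM in Schwann cells. Its level was 258, 413 and 304 CPM in the oligodendrocyte lineage, close to the 269, 249 and 288 CPM of neurons. ENSDART00000162194.1 had 0.173, 0 and 0 CPM in Schwann cells, against 159, 116 and 125 CPM in the oligodendrocyte lineage, close to the 107, 120 and 114 CPM of neurons. For both, the libraries of the oligodendrocyte lineage and of neurons overlapped, and the neuron libraries lay close together, with means of 269 ± 19.7 and 114 ± 6.85 CPM (SD, n = 3).

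**Figure D1:**
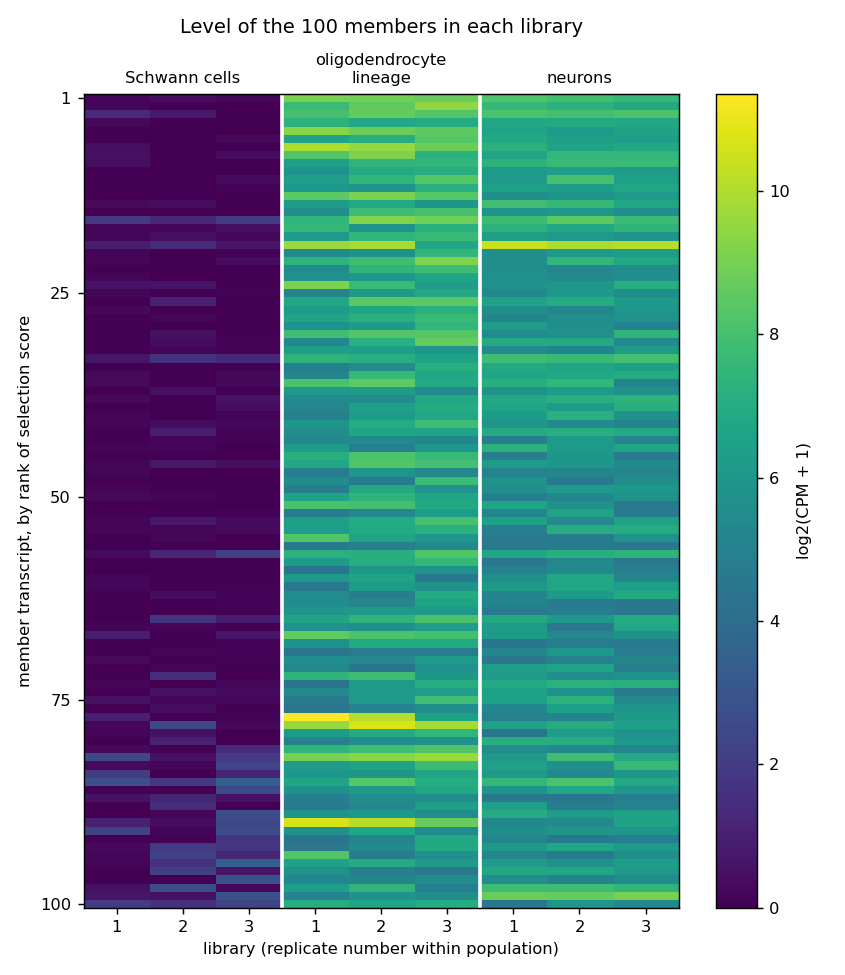
Level of each of the 100 members (rows, by rank of the selection score) in each of the 9 libraries (columns), as log2(CPM + 1). The Schwann cell columns are near 0 for most rows, with faint signal in the lowest ranks, while the oligodendrocyte lineage columns differ more among themselves than the neuron columns.

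Over all members, the mean level in Schwann cells ran from 0 to 5.95 CPM with a median of 0.138. The mean level in the oligodendrocyte lineage ran from 24.8 to 1266 CPM with a median of 109, and in neurons from 23.3 to 1166 CPM with a median of 70.3. Summed over the 100 members, the level was 37.8, 53.2 and 88.1 CPM in the Schwann cell libraries, against 17431, 19584 and 17513 CPM for the oligodendrocyte lineage libraries and 9961, 10372 and 9720 CPM for the neuron libraries. The members thus took 1.82% of the counts of an average oligodendrocyte lineage library and 1.00% of those of an average neuron library. In bulk samples, fewer cells with a transcript and less of it in each cell cannot be told apart.

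In Schwann cells 70 members stayed under 1 CPM in every library, 23 reached 1 to 5 CPM in at least 1 library and 7 reached 5 CPM or more. No counts were found in any Schwann cell library for 13 members, in 2 libraries for 30, in 1 for 32, and all 3 libraries had some estimated counts for 25. Over the whole group, 48 members had 3 or fewer counts. The Schwann cell libraries held 7123251 to 11191844 estimated counts, against 11439759 to 17126213 in the other groups, and 3 counts in a single Schwann cell library correspond to 0.268 to 0.421 CPM. For the 13 members with no counts, the Schwann cell level was set to 3 counts in all 3 libraries together, or 0.112 CPM. The oligodendrocyte lineage mean was 281-fold to 4285-fold that value, depending on the member, and the neuron mean 208-fold to 892-fold. These ratios are not lower bounds, since the members were chosen for low Schwann cell levels. The 3 counts allow for counting error only, not for the spread between libraries. Amplified libraries without molecular identifiers also do not count independent molecules.

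The highest Schwann cell level among the members belonged to ENSDART00000148576.3, at 5.83, 2.63 and 9.39 CPM in Schwann cells. Neurons had 183, 284 and 116 CPM of it, and the oligodendrocyte lineage 106, 330 and 130 CPM. Its Schwann cell signal came from 173 estimated counts and was present in all 3 libraries, so this member was low in that population and not without reads.

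The limit of the list fell between ranks 100 and 101. ENSDART00000171490.1, at rank 100 with a score of 2.13, had at most 3.97 CPM in Schwann cells and at least 20.7 CPM elsewhere, and ENSDART00000115330.4, at rank 99, had at most 6.17 CPM and at least 32.0 CPM. Just outside were ENSDART00000179312.1, with a score of 2.08, at most 9.77 CPM in Schwann cells and at least 44.4 CPM elsewhere, and ENSDART00000149087.2, with 1.99, at most 4.80 CPM and at least 22.1 CPM. The scores of these 4 transcripts lay close together, while their levels did not. The ratio of the oligodendrocyte lineage mean to the neuron mean was 0.0955 at rank 99 and 3.04 at rank 100.

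**Figure D2:**
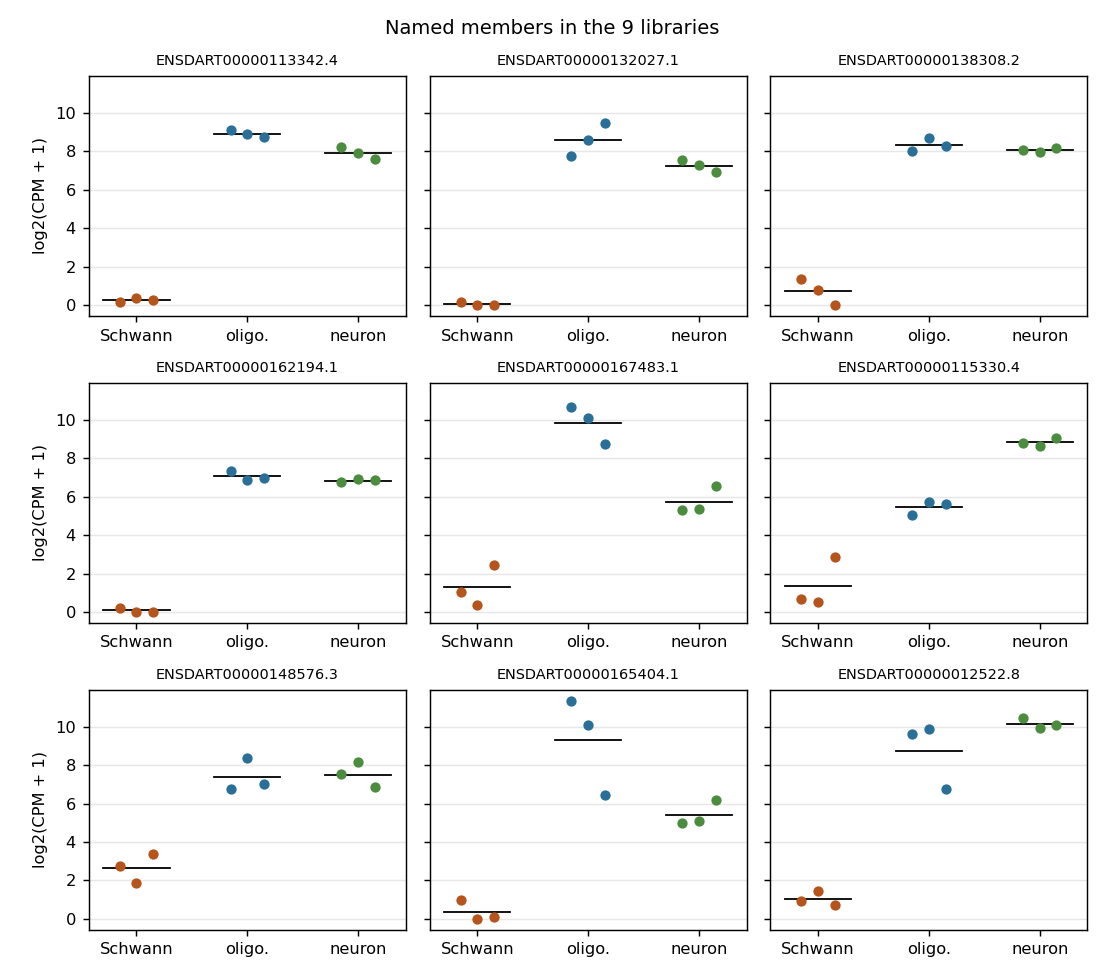
Level as log2(CPM + 1) in the 9 libraries for 9 members chosen by the naming rule, all but ENSDART00000171490.1 at rank 100. Points are in the order of replicates 1, 2 and 3, with a line at the mean of the plotted values. ENSDART00000165404.1 and ENSDART00000012522.8 had 1 low oligodendrocyte lineage library, replicate 3, and ENSDART00000115330.4 was the named member with the largest excess in neurons.

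The pattern was an uncommon one among abundant transcripts. A total of 2604 transcripts reached 20 CPM in all 6 libraries of the oligodendrocyte lineage and neurons, and 1316 of them also reached 20 CPM in all 3 Schwann cell libraries. The 109 that were under 10 CPM in all 3 Schwann cell libraries made up 4.19% of the 2604. Turned to other populations, the rule gave 48 transcripts under 10 CPM in the oligodendrocyte lineage, 2.66% of 1805 that Schwann cells and neurons carried. It gave 9 under 10 CPM in neurons, 0.560% of 1606 that both kinds of glia carried. Under 10 CPM is low and not absent. No counts in all 3 libraries of the low population were found for 13 of the 109, 7 of the 48 and 0 of the 9. The Schwann cell libraries also held the fewest counts, and the part of this in the larger share was not tested.

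The share that met the rule was smaller among more abundant transcripts. It was 5.61% of the 1445 transcripts whose lowest level in the 6 libraries was 20 to 50 CPM, 3.09% of 679 at 50 to 100 CPM, 1.89% of 317 at 100 to 200 CPM and 0.613% of 163 above that. In the mirror case of the oligodendrocyte lineage the shares were 4.01%, 1.83%, 1.13% and 0.571% over the same ranges. The members lay mostly at moderate levels, with a median of 35.5 CPM for the lowest of their 6 libraries. Most of the 2604 did so too, with 1445 of them in the range of 20 to 50 CPM.

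Schwann cells replicate 3 decided much of the membership. Of the 359 transcripts under 10 CPM in exactly 2 Schwann cell libraries, replicate 3 was the one at 10 CPM or more for 279, replicate 1 for 47 and replicate 2 for 33. Each library was then read for transcripts chosen on the other 8 libraries, a level that had no part in their choice. Those also under 10 CPM in the library read were the same 109 each time, the transcripts that met the full rule. The shares that follow therefore restate the 47, 33 and 279 in another form. Without replicate 1, 156 transcripts met the rule, and 69.9% of them were under 10 CPM in replicate 1, where 26.4% of all 2604 were. Without replicate 2, 142 met it, and 76.8% were under 10 CPM in replicate 2, where 32.4% of all 2604 were.

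Without replicate 3, 388 met the rule, and 28.1% of them were under 10 CPM in replicate 3, where 8.03% of all 2604 were. In replicate 3, 258 of those 388, or 66.5%, reached 20 CPM or more, and the median of the 388 was 37.5 CPM. Most transcripts chosen for under 10 CPM in replicates 1 and 2 thus reached 20 CPM in replicate 3, while in each library the chosen transcripts were under 10 CPM more often than the 2604 as a whole. Replicate 3 had 22994 transcripts with any count, against 17621 and 16568 in replicates 1 and 2. The part of that difference in the held-out shares was not tested.

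**Figure D3:**
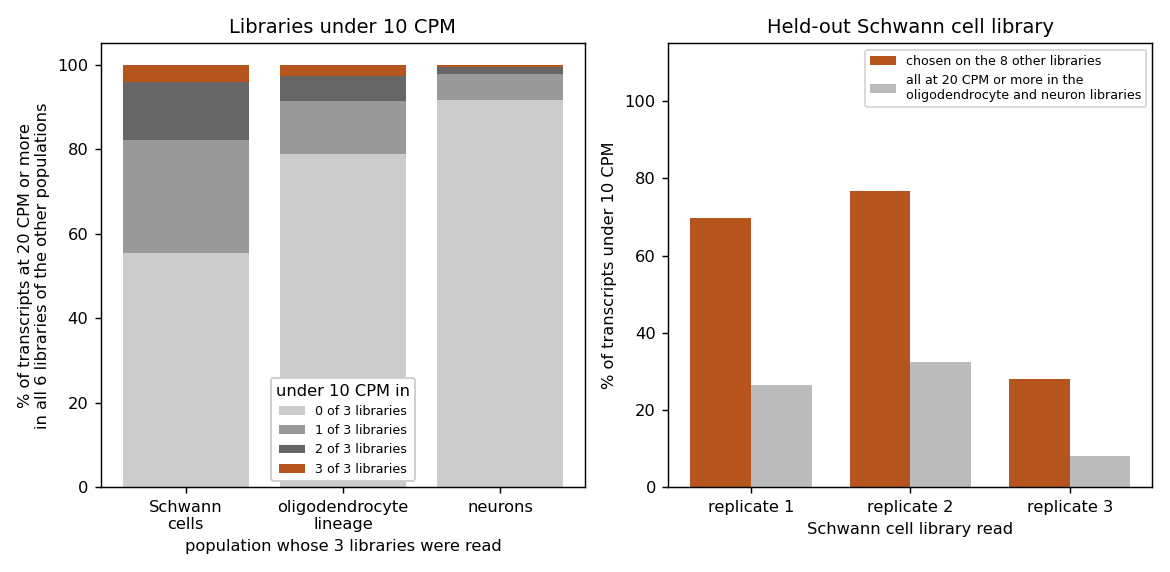
Left, share of transcripts at 20 CPM or more in all 6 libraries of the other populations (2604, 1805 and 1606 transcripts) that were under 10 CPM in 0, 1, 2 or 3 libraries of the population named. Right, share under 10 CPM in a Schwann cell library that was left out of the choice, with 28.1% in replicate 3 against 69.9% and 76.8% in replicates 1 and 2, beside the share among all 2604.

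Each library of the populations that carry the members was also left out in turn. No share over all transcripts was computed beside these values, so the shares that follow describe the libraries only. Of transcripts chosen without oligodendrocyte lineage replicates 1, 2 and 3, 70.8% of 154, 76.2% of 143 and 59.6% of 183 reached 20 CPM in the library left out. For neurons the shares were 90.1% of 121, 81.3% of 134 and 79.0% of 138. Those that reached 20 CPM were the same 109 transcripts for every library left out. The lowest share was that of oligodendrocyte lineage replicate 3, where 65 of 183 were under 10 CPM.

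The comparison that the rule did not use directly is that of the oligodendrocyte lineage with neurons. It asked whether members present in both were carried at like levels. The rule still bears on it, since every member had to reach 20 CPM in all 6 libraries. A fit to all 9 libraries also takes a transcript's spread partly from its Schwann cell counts, which the rule chose to be low. The mean was higher in the oligodendrocyte lineage for 68 members and higher in neurons for 32, where it was higher in the oligodendrocyte lineage for 66.5% of the 2604 transcripts at 20 CPM or more in the 6 libraries and for 51.5% of all tested. The members' lean was thus close to that of the 2604. It was over 2-fold higher in the oligodendrocyte lineage for 38 and over 2-fold higher in neurons for 7, and 55 lay within 2-fold. Among the 2604, 23.0% were over 2-fold higher in the oligodendrocyte lineage and 7.87% in neurons, and the differences in share were not tested. The ratio of means ran from 0.0955 to 28.0 with a median of 1.43.

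The libraries of both populations overlapped for 62 of the 100 members. Every oligodendrocyte lineage library lay above every neuron library for 29 of 100 members, where 10.6% of all 23408 transcripts tested did so, and the reverse held for 9, where 14.7% did so. Among the 2604 transcripts at 20 CPM or more in the 6 libraries, the shares were 23.4% and 9.98%, near those of the members. In edgeR's quasi-likelihood test, fitted to all 9 libraries and adjusted by the Benjamini-Hochberg method over 23408 transcripts, 0 members were called at an adjusted p under 0.05 in either direction. The background was 0.0342% of all transcripts called towards the oligodendrocyte lineage and 0.0513% towards neurons. This test called only 20 of the 23408, with a common biological coefficient of variation of 1.584. The 0 calls therefore do not show that the members were carried at like levels. An unadjusted p under 0.05 was reached by 9 members, 8 higher in the oligodendrocyte lineage and 1 in neurons. By direction the shares were 5.03% and 2.80% among the 2604 and 2.73% and 8.67% among all transcripts tested, which leaned the other way.

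Other tests called more. DESeq2 called 4 members higher in the oligodendrocyte lineage and 1 higher in neurons, where it called 2.05% and 7.52% of all transcripts. Voom with sample quality weights called 11 and 1, where it called 2.07% and 7.03%. Limma on log2(TPM + 1) called 3 and 1, where it called 0.876% and 4.04%, and edgeR fitted to only the compared groups called 2 and 1, where it called 0.286% and 1.02%. With each, the members' share was above the background towards the oligodendrocyte lineage, and it was below the background towards neurons with the first 3 and level with it in the last. These differences in share were not tested. The background for these tests was all transcripts tested, and no share called was computed among the 2604 at 20 CPM or more in the 6 libraries. By mean level, 66.5% of those 2604 were higher in the oligodendrocyte lineage, against 68% of the members. The shares called therefore cannot tell a lean of the members from one shared by transcripts at such levels.

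The members' fitted log2 differences between the oligodendrocyte lineage and neurons had a median of 0.42, with quartiles of -0.22 and 1.40, against a median of -0.06 over all transcripts tested and 0.21 over the 2604. The members' median was thus 0.48 above that of all transcripts, and less far above that of the 2604. The gaps that follow are to all transcripts, which had no floor of 20 CPM, and gaps to the 2604 were not computed under these settings. Under upper-quartile scaling, which moved the median of all transcripts to 0.06, the gap was 0.49, and under DESeq2 size factors it was 0.51. It was 0.95 without oligodendrocyte lineage replicate 1, 0.76 without replicate 2 and 0.25 without replicate 3, and from 0.35 to 0.53 without any other single library. The size of the gap therefore rested on which oligodendrocyte lineage libraries were read.

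ENSDART00000167483.1 had the lowest unadjusted p of the members higher in the oligodendrocyte lineage. Its levels were 1606, 1113 and 425 CPM there, against 38.5, 40.1 and 92.6 CPM in neurons and 1.06, 0.281 and 4.43 CPM in Schwann cells. Every oligodendrocyte lineage library lay above every neuron library, while the rule itself placed Schwann cells below both. The fitted log2 difference between the oligodendrocyte lineage and neurons was 4.06 (SE 1.02, unadjusted p = 0.00286, edgeR adjusted p = 0.178), so the member was not called.

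ENSDART00000115330.4 had the lowest unadjusted p of those higher in neurons. It had 446, 403 and 532 CPM in neurons, 32.0, 52.1 and 47.7 CPM in the oligodendrocyte lineage, with 0.588, 0.421 and 6.17 CPM in Schwann cells. Neurons were 10.5-fold above the oligodendrocyte lineage by the ratio of means, with no overlap. The fitted log2 difference was -3.52 (SE 1.04, unadjusted p = 0.00746, edgeR adjusted p = 0.205), again not called. All its estimated counts were whole numbers in every library.

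The most abundant member in neurons, ENSDART00000012522.8, had 1410, 985 and 1103 CPM there and 790, 935 and 107 CPM in the oligodendrocyte lineage, with 0.926, 1.75 and 0.625 CPM in Schwann cells. Oligodendrocyte lineage replicate 3 stood far below the other libraries of its group. The most abundant member in the oligodendrocyte lineage, ENSDART00000165404.1, had 2620, 1092 and 85.5 CPM there, 30.8, 33.1 and 72.0 CPM in neurons and 0.971, 0 and 0.0894 CPM in Schwann cells. Its mean of 1266 ± 1276 CPM (SD, n = 3) covers 3 libraries that lay far apart, and replicate 3 alone was close to neurons. Its fitted log2 difference from neurons was 4.67 (SE 1.46, edgeR adjusted p = 0.225).

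**Figure D4:**
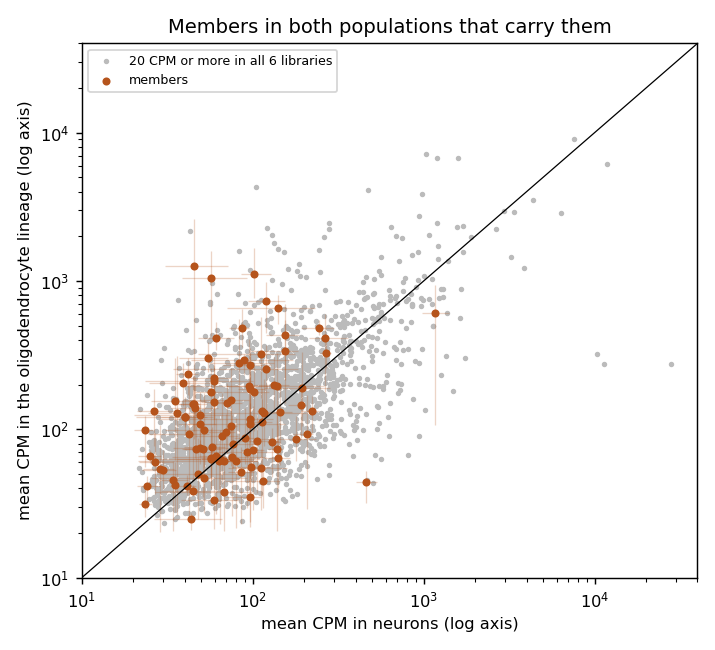
Mean CPM in the oligodendrocyte lineage against mean CPM in neurons, both on log axes, for the 100 members, with bars from the lowest to the highest library, and for all 2604 transcripts at 20 CPM or more in the 6 libraries. Of the members, 68 lie above the line of equal levels and 32 below it, where 66.5% of the 2604 lie above it, and the bars are longer along the oligodendrocyte lineage axis.

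The members varied more between oligodendrocyte lineage libraries than between neuron libraries. The median coefficient of variation over 3 libraries was 47.0% in the oligodendrocyte lineage and 27.3% in neurons, and it was larger in the oligodendrocyte lineage for 75 members. The 2604 transcripts had medians of 38.4% and 27.9%, with 64.8% of them more variable in the oligodendrocyte lineage. Replicate 3 was the highest oligodendrocyte lineage library for 55 members and replicate 1 the lowest for 61, where these shares were 39.3% and 37.5% among the 2604.

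The deviations did not run one way. Replicate 3 was more than 2-fold above both other oligodendrocyte lineage libraries for 17 members and more than 2-fold below both for 10. Replicate 1 was more than 2-fold below both others for 19 and above both for 4. No share of the 2604 was computed beside these counts, so they describe the libraries only. Across the 100 members, the Spearman correlation of levels was 0.757 between oligodendrocyte lineage replicates 1 and 2, 0.494 between 1 and 3 and 0.637 between 2 and 3. Within neurons it was 0.609 to 0.689, and between the 2 populations it was 0.141 to 0.375. These coefficients describe 100 transcripts that share libraries and a selection on level, and the order of members by level was shared within a population more than between them.

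Transcript length was not part of the rule. The members had a median length of 3431.5 bases, with quartiles of 2416 and 5100 and a range from 917 to 11013. The 2604 transcripts at 20 CPM or more in the 6 libraries had a median of 2757.5 bases, the 1316 at that level in all 9 libraries had 2448.5, and all 23408 tested had 2264. Only 1 member was shorter than 1000 bases, where 3.61% of the 2604 were, and 28 were longer than 5000 bases, where 18.3% were.

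CPM is not divided by length. With the rule applied to TPM, counts per effective length scaled to 1000000 in each library, 101 transcripts passed, 60 of them members, and their median length was 2245 bases. The 2652 transcripts at 20 TPM or more in the 6 libraries had a median of 1932 bases. Both medians were lower than under CPM. In either unit the chosen transcripts were longer at the median than all those at 20 or more in the 6 libraries. That floor does not match the sets for level. The differences in length were not tested. On the TPM scale the members' mean levels had medians of 62.4 in the oligodendrocyte lineage, 45.7 in neurons and 0.0672 in Schwann cells. The shortest member, ENSDART00000150574.1, had 25.8, 29.4 and 39.1 CPM in the oligodendrocyte lineage, against 22.4, 25.8 and 21.7 CPM in neurons and no counts in Schwann cells. The longest, ENSDART00000108507.3, had 77.3, 122 and 177 CPM in the oligodendrocyte lineage, against 20.1, 73.6 and 54.4 CPM in neurons and 0.118, 0.421 and 0 CPM in Schwann cells. Per length their order was the reverse of that in CPM, with 82.3, 97.8 and 119 TPM for the shortest and 13.0, 21.7 and 28.4 TPM for the longest in the oligodendrocyte lineage. Both were named for their lengths after these were seen.

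**Figure D5:**
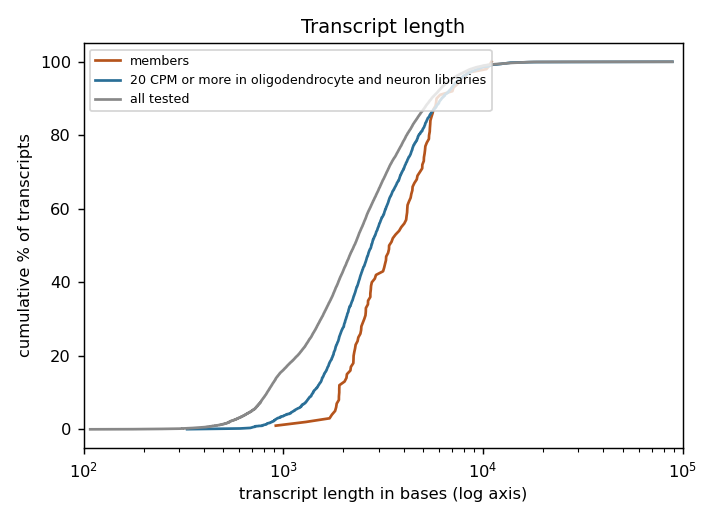
Cumulative share of transcripts by length in bases on a log axis, for the 100 members, the 2604 transcripts at 20 CPM or more in all oligodendrocyte lineage and neuron libraries, and all 23408 tested. The members' curve lies furthest right, with medians of 3431.5, 2757.5 and 2264 bases.

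Estimated counts split reads between isoforms and near-identical genes, which are common in zebrafish after a genome duplication in the teleost lineage, so the level of an ID can depend on that split. For 29 members every library had a whole-number estimate, within a tolerance of 1e-06, as had 23.6% of the 2604 and 19.5% of all tested. A library with no counts gives a whole number, and the rule chose low Schwann cell counts, so these shares are not on equal terms. These 29 had a median of 96.0 CPM in the oligodendrocyte lineage, 79.8 CPM in neurons and 0.138 CPM in Schwann cells. The other 71 had 117, 63.6 and 0.125 CPM. The mean was higher in the oligodendrocyte lineage for 19 of the 29 and 49 of the 71, shares of 65.5% and 69.0% whose difference was not tested. ENSDART00000113342.4, ENSDART00000138308.2 and ENSDART00000115330.4 were among the 29.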

How the data were processed

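Each of the 9 deposited tables holds 1 library. Per the file headers, the columns are the transcript ID, its length and effective length in bases, and its estimated count, often fractional. RSEM 1.2.15, Bowtie2 2.1.0, Trimmomatic, FastQC and the build danRer10 are named in the submitters' processing notes without roles. The program behind these estimated counts is not given in the sources used here, nor is the annotation. Per the labels' protocols, RNA was amplified with a SMART-Seq v4 kit, and no molecular identifiers are mentioned. CPM and TPM were computed here from the deposited estimated counts and effective lengths.

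The members, the lists and the naming rule were chosen with earlier results of these data known. The named transcripts are the 4 of highest score, the lowest unadjusted p in each direction between the oligodendrocyte lineage and neurons (none was called), 2 on each side of the limit of the list, and the highest mean in each population. Marker lists could not be used without gene names.

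Estimated counts were rounded and tested with edgeR 4.0.16 in R 4.3.3 (filterByExpr, TMM factors, quasi-likelihood fit of all 9 libraries by group, two-sided, 23408 transcripts). The common biological coefficient of variation was 1.584. The SE given with a fitted log2 difference was back-calculated, as its absolute value divided by the square root of the test's F statistic. DESeq2 1.42.0, limma 3.58.1 (voom, and log2(TPM + 1)), other scalings and filters, a length offset, the replicate number as a block, and fits without each library were alternatives.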

Additional observations from a re-analysis of the deposited data

How the results depend on the processing

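Against the 0 members called between the oligodendrocyte lineage and neurons, DESeq2 called 5, limma 4 on log2(TPM + 1) and 12 with weighted voom, and edgeR 3 with only the compared groups. Over all transcripts these called 2060, 1150, 2130 and 278, against 20 by edgeR. The count was 0 with both other scalings, both other filters and the length offset. Over all transcripts, edgeR called 20 with DESeq2 size factors and 8 with upper-quartile factors. It called 65 without a filter, 70 with a filter of 10 CPM in 3 libraries and 20 with the length offset. The count of members was 0 to 1 without any single library, the 1 being without Schwann cells replicate 2. The fits without a library called 0 to 58 of all transcripts. The cause of these differences was not tested. The 109 transcripts meeting the rule became 240 at a presence limit of 10 CPM and 28 at 50 CPM, and 70 at an absence limit of 1 CPM, since those limits admit more or fewer. TPM gave 101, TMM-normalised CPM 117 and an absence limit of 5 CPM 94. Chosen after seeing the data, transcripts with whole-number counts alone gave 29, and reading only replicates 1 and 2 of Schwann cells and of the oligodendrocyte lineage gave 601. Without a single library the count was 121 to 388, with 388 without Schwann cells replicate 3 and 183 without oligodendrocyte lineage replicate 3. Leaving out libraries cannot lower this count, and keeping only a part of the transcripts cannot raise it. The held-out share under the limit, 58.2% ± 26.3 over the 3 Schwann cell libraries, was 57.4% at 1 CPM and 60.3% at 5 CPM. The 3 shares behind each mean have the same numerator, the transcripts that met the full rule at that limit. Thinning every library to 7123174 counts gave 109 transcripts and a share of 58.1%, but thinning leaves CPM unchanged on average, so these values say nothing about depth.

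Members named at rank 100 or for their length were not followed through the alternative settings. Of the other named members, ENSDART00000138308.2 turned to a log2 difference of -0.002 without oligodendrocyte lineage replicate 2 and ENSDART00000162194.1 to -0.05 without replicate 1. ENSDART00000148576.3 turned to 0.10 without oligodendrocyte lineage replicate 1 and to 0.15 without neurons replicate 2. None of the 3 was called, with edgeR adjusted p of 0.999 to 1, 0.999 to 1 and 0.975 to 1 in that order over fits without a library. ENSDART00000167483.1 passed with DESeq2 (0.00221), voom (0.0168) and limma on TPM (0.0243), and ENSDART00000115330.4 with these (0.0103, 0.00314 and 0.0221) and with only the compared groups (0.0262). ENSDART00000165404.1 passed with DESeq2 (0.0203). Their edgeR adjusted p ran from 0.0877 to 0.521 without any single library.

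Libraries with the same replicate number did not deviate together, with correlations of -0.036 to 0.028 over 9 pairs, and 2 of 9 libraries correlated best with one of their own number. With a replicate block 0 members and 0 of all transcripts were called, and 7 members had an unadjusted p under 0.05. The share of all transcripts with such a p was not computed for that fit.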
